A study of Mus musculus with 6 samples.

Results

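The proteases that cut the extracellular matrix, and the inhibitors that hold them in check, were examined in RNA sequencing of mouse colon after lenvatinib. The set held the matrix metalloproteinases (MMPs), the ADAMTS proteases and the tissue inhibitors of metalloproteinases (TIMPs). Members were chosen by gene symbol, taking every numbered Mmp and Adamts gene and Timp1 to Timp4 and leaving out Mmp7. This choice was made with earlier results of these data known. The rule gave 43 of the 25339 genes in the deposited table, made up of 20 MMP, 19 ADAMTS and 4 TIMP genes.

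MMPs are zinc endopeptidases that are made as inactive precursors and become active when another protease removes the propeptide. Collagenases open the triple helix of fibrillar collagen, gelatinases digest the unwound chains and basement membrane collagen, stromelysins cut proteoglycans and activate other MMPs, and membrane-type MMPs work at the cell surface. ADAMTS proteases are secreted enzymes that trim procollagen or cut large proteoglycans such as versican and aggrecan, and TIMPs bind the active site of these enzymes and block it. In the gut, fibroblasts, macrophages, neutrophils and epithelium are all known sources, and several members are induced by inflammation.

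The libraries came from colon of mice given DMSO, a solvent, or lenvatinib, a small-molecule drug that blocks receptor tyrosine kinases such as the VEGF, FGF and PDGF receptors and KIT. Each of the 2 groups had 3 libraries, called DMSO 1 to 3 and lenvatinib 1 to 3 here. The sources used here do not give strain, genotype, age, dose or duration, or say whether colitis was induced. The labels number the libraries as biological replicates without naming an animal. The p-values therefore measure only the spread between these libraries, part of which may be technical.

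Each library held 37660528 to 39287783 reads in genes. Within each group, library 2 was close to a copy of library 3. The median squared deviation between them was 2.61 (DMSO) and 2.37 (lenvatinib) times that of counting noise, against 10.2 to 24.2 for every other pair of libraries. DMSO 1 differed from the other 5 in sex-linked transcripts, with 6.54 FPKM of Ddx3y, which was listed at 0 elsewhere, and 0.00147 FPKM of Xist against 15.9 to 19.8. This is a male pattern in DMSO 1 and a female pattern in the other 5, so sex was not balanced between the groups. Epithelium markers were present in every library, with Cdx2 at 208 to 235 FPKM. Of 8 such markers, 5 were lower in lenvatinib without overlap (Epcam, Cdh1, Krt8, Krt18 and Krt20), and 0 passed in limma. Vil1, Cdx2 and Car1 overlapped. The small-intestine marker Fabp6 stood at 148 to 161 FPKM in lenvatinib against 1.45 to 2.28 FPKM in DMSO. Of 7 such markers with a mean of at least 1 FPKM, 6 were higher in lenvatinib without overlap (Fabp6, Apoa1, Apob, Sis, Lyz1 and Mptx2). Fabp2 overlapped between the groups. Over all genes at that level, 27.5% did not overlap. Among lower markers, Apoa4 was higher and Pdx1 lower without overlap, and Lct and Gata4 overlapped.

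Levels below are FPKM, fragments normalised to gene length and library size, so levels of different genes can be compared per length. Group values are mean ± SD over n = 3 libraries. A log2 fold change is the lenvatinib mean minus the DMSO mean of log2(FPKM + 1), a scale that compresses differences between low levels. Adjusted p-values come from limma with Benjamini-Hochberg adjustment over the 11774 genes whose mean reached 1 FPKM, and a gene passed at an adjusted p below 0.05.

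Few members differed between the groups beyond the spread of the libraries. Of the 43 members, 20 reached a mean of 1 FPKM and were tested, namely 11 MMP, 6 ADAMTS and 3 TIMP genes. The gelatinase Mmp9 and the collagenase Mmp13 fell and the proteoglycanase Adamts1 rose, and the other 17 did not pass. Over all genes tested, 2.03% passed, with 0.934% lower and 1.10% higher in lenvatinib. The median log2 fold change was −0.04 over the tested members, 8 of them positive and 12 negative, and −0.07 over all genes. By family it was −0.08 for MMP, 0.02 for ADAMTS and 0.16 for TIMP genes. The lenvatinib and DMSO values did not overlap for 7 of the 20, of which 4 were lower and 3 higher in lenvatinib, while 27.5% of all tested genes showed no overlap. Of the 20 members, 6 had an unadjusted p below 0.05 (30%, against 22.0% of all genes).

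In these colons a few members supplied most of the transcripts. Mmp15, Mmp14 and Mmp2 together made up 77.2 to 83.1% of the summed MMP level in each library. Timp2 and Timp3 made up 89.5 to 96.6% of the summed TIMP level. No ADAMTS gene exceeded 6 FPKM in any library. The collagenase Mmp13 and the gelatinase Mmp9 stood far below Mmp15, Mmp14, Mmp2, Timp2 and Timp3, at 0.789 to 4.55 FPKM.

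**Figure D1:**
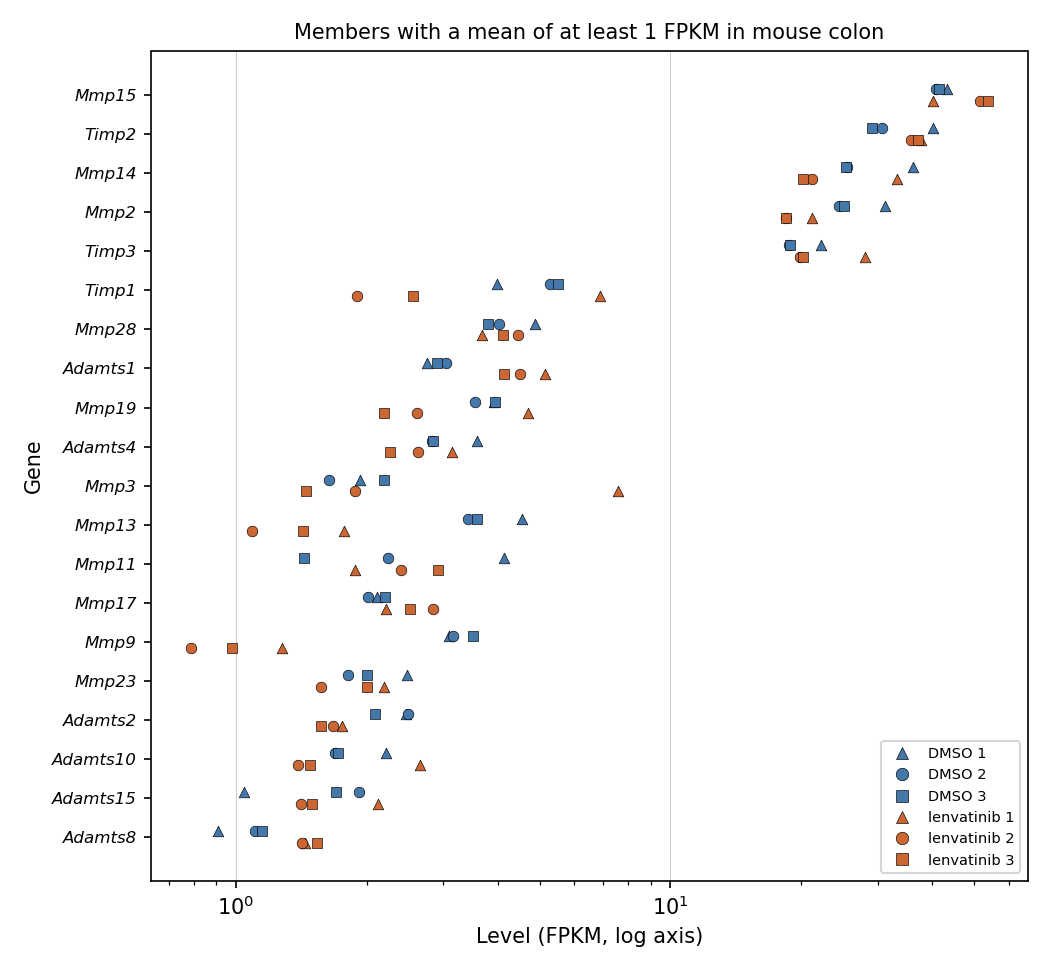
FPKM (log axis) of the 20 tested members in each of the 6 libraries, ordered by mean level, with blue for DMSO, orange for lenvatinib, and triangle, circle and square for libraries 1, 2 and 3. Mmp15, Timp2, Mmp14, Mmp2 and Timp3 lie highest, and lenvatinib 1 sits apart from lenvatinib 2 and 3 for Mmp3 and Timp1.

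Mmp9, gelatinase B, is a secreted enzyme stored by neutrophils and made by macrophages that digests denatured and type IV collagen. Its level was 3.10, 3.16 and 3.51 FPKM in the DMSO libraries and 1.28, 0.789 and 0.979 FPKM in lenvatinib, each in the order 1 to 3 as in all such series of values here. Every lenvatinib library lay below every DMSO library. The mean went from 3.25 ± 0.222 to 1.02 ± 0.247 FPKM, 3.20-fold lower, with a log2 fold change of −1.08 (SE 0.110, limma adjusted p = 0.00853). In recovered reads this was 447 to 519 per DMSO library and 117 to 186 per lenvatinib library. In bulk tissue, fewer cells of a type and less RNA per cell cannot be told apart, here and for every result that follows. Small-intestine markers such as Fabp6 also differed between the groups. The part of the gut region sampled in any of these results was not tested.

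Mmp13, the main interstitial collagenase of the mouse, cuts fibrillar collagens of types I, II and III. It stood at 4.55, 3.42 and 3.59 FPKM in DMSO and 1.78, 1.09 and 1.43 FPKM in lenvatinib. The groups did not overlap, and the highest lenvatinib value came again from library 1. The mean went from 3.85 ± 0.605 to 1.43 ± 0.343 FPKM, 2.69-fold lower, with a log2 fold change of −0.999 (SE 0.139, limma adjusted p = 0.0264). The other collagenase, the neutrophil enzyme Mmp8, was nearly silent, with 2 to 6 reads in each DMSO library and 29, 4 and 2 reads in lenvatinib 1 to 3, and was not tested.

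Mmp2, gelatinase A, is the constitutive gelatinase of fibroblasts and is activated at the cell surface by Mmp14 together with Timp2. It was far more abundant than Mmp9, at 31.3, 24.5 and 25.1 FPKM in DMSO and 21.1, 18.4 and 18.4 FPKM in lenvatinib. All 3 lenvatinib values lay under the DMSO values, but the difference did not pass (26.9 ± 3.74 against 19.3 ± 1.57 FPKM, log2 fold change −0.45, SE 0.111, limma adjusted p = 0.107). The summed gelatinase level was 34.4, 27.6 and 28.6 FPKM in DMSO and 22.4, 19.2 and 19.4 FPKM in lenvatinib, most of it Mmp2.

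Marker genes of macrophages, fibroblasts, neutrophils and mast cells were read beside these levels. Of 12 macrophage and monocyte markers tested, 8 passed as lower and 10 had lower, non-overlapping lenvatinib values, and their summed level was 365 to 432 FPKM in DMSO and 155 to 229 FPKM in lenvatinib. Of 11 fibroblast markers, Lum and Dpt passed as lower and 6 had lower, non-overlapping lenvatinib values. The fibroblast markers summed to 331 to 378 FPKM in DMSO and 261 to 348 FPKM in lenvatinib. The 5 tested mast cell markers all passed as lower, with sums of 208 to 227 FPKM against 0.174 to 0.944 FPKM. Of 10 neutrophil markers 4 were tested and 0 passed in limma, with 2 (S100a8 and Ly6g) higher at an unadjusted p below 0.05. Lenvatinib values were higher without overlap for 3 of the 4 (S100a8, S100a9 and Ly6g), and Retnlg overlapped. The 10 neutrophil markers summed to 8.01 to 18.6 FPKM in DMSO and 12.6 to 45.4 FPKM in lenvatinib, and Mpo was at 0 in all libraries. The part of these cell types in the levels of Mmp9, Mmp13 and Mmp2 was not tested.

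**Figure D2:**
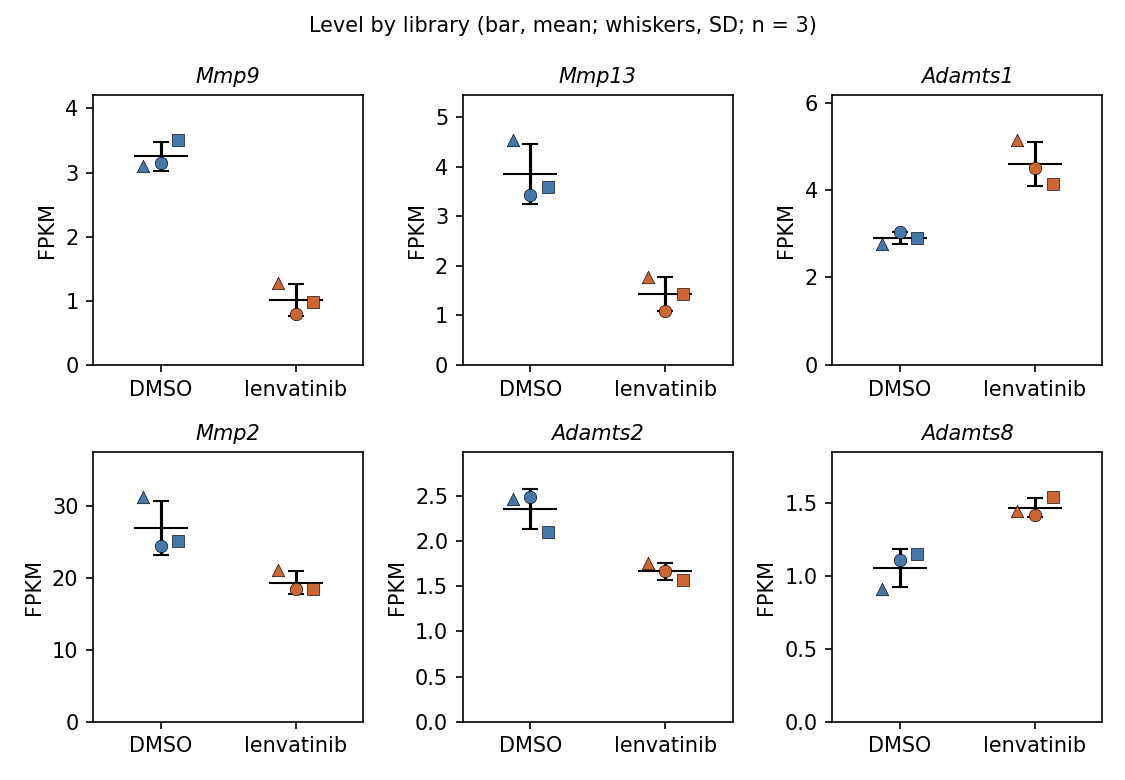
FPKM on a linear axis from 0 for Mmp9, Mmp13, Adamts1, Mmp2, Adamts2 and Adamts8 in each library (triangle, circle and square for libraries 1, 2 and 3), with the mean and SD of each group of 3. For all 6 genes the lenvatinib points lie wholly on 1 side of the DMSO points, and of these Mmp9, Mmp13 and Adamts1 passed the test.

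Mmp13 belongs to a row of MMP genes on chromosome 9. RefSeq lists 10 MMP genes there, in the order Mmp13, Mmp12, Mmp1b, Mmp3, Mmp1a, Mmp10, Mmp8, Mmp27, Mmp20 and Mmp7, and 8 of them are rows of the table. Several members of this row are known targets of AP-1, the factor built from Fos and Jun proteins, so the 250 bases before each start site were searched for its site, TGACTCA, on both strands (TGAGTCA is the other strand). A match was found in 4.46% of 32851 RefSeq windows of this length. Of 29 members of the set with a window, 4 held a match in any window, and all 4 lie in this row: Mmp13, Mmp12, Mmp3 and Mmp10. A gene can have several windows, so this count of genes and the share of windows are in different units. These windows are shown because the 4 genes share the motif close to their start. They are RefSeq sequences of build GRCm38.p6, plus strand, 5′ to 3′, at chr9:7272264-7272513 (Mmp13), chr9:7347124-7347373 (Mmp12, the matching 1 of 2 windows), chr9:7445572-7445821 (Mmp3) and chr9:7502092-7502341 (Mmp10), with the match in capitals.
Mmp13: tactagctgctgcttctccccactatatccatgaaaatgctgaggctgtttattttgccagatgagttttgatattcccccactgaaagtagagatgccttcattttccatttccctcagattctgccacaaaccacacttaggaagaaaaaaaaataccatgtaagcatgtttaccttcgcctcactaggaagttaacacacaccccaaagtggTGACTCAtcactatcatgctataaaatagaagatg
Mmp12: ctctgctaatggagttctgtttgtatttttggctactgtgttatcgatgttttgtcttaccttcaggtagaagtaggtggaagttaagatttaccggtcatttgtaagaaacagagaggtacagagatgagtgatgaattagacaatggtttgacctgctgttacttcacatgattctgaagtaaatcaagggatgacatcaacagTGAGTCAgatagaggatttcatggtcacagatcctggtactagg
Mmp3: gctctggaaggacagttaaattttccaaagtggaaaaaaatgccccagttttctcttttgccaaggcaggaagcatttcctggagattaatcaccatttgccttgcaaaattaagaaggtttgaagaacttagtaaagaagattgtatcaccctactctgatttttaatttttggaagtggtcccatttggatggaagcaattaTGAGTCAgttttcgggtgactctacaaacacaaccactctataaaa
Mmp10: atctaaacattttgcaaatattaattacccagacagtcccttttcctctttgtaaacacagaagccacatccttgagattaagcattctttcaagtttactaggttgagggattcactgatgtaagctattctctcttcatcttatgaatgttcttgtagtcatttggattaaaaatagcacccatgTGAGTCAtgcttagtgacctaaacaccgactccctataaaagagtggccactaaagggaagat
The match begins 35 bases before the start in Mmp13, 44 in Mmp12, 46 in Mmp3 and 63 in Mmp10. Mmp13, Mmp3 and Mmp10 also hold the letters TATAAA, which occur on either strand in 12.4% of all windows. In the whole set 6 of 29 members with a window held these letters, the others being Adamts1, Mmp20 and Mmp21. The windows of Mmp8, Mmp27 and Mmp20 held no AP-1 match. A match is a description of the sequence and not evidence of binding, and its part in the levels of these genes was not tested.

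The levels of these 4 genes are given library by library, and Mmp10 and Mmp12 had means under 1 FPKM and were not tested. Mmp3, stromelysin 1, which cuts proteoglycans and activates procollagenases, stood at 1.93, 1.64 and 2.20 FPKM in DMSO and 7.55, 1.88 and 1.45 FPKM in lenvatinib. Lenvatinib 1 alone was high (521 reads, against 101 to 154 in each of the other 5), and lenvatinib 2 and 3 lay within or below the DMSO range. Its log2 fold change was 0.43 (limma adjusted p = 0.580) and was −0.13 without lenvatinib 1. Mmp10, stromelysin 2, was low, at 0.789, 0.393 and 0.118 FPKM in DMSO and 1.23, 0.281 and 0.342 FPKM in lenvatinib. Lenvatinib 1 was again the highest library, on 82 reads, and DMSO 1 came next with 52. Mmp12, the macrophage metalloelastase, stood at 0.391, 0.462 and 0.327 FPKM in DMSO and 0.395, 0.149 and 0.192 FPKM in lenvatinib, so that lenvatinib 2 and 3 were low and lenvatinib 1 lay within the DMSO range. Mmp13 was lower in all 3 lenvatinib libraries. Mmp7, matrilysin, left out of the set by its rule, ends the row with 1 read in each DMSO library and 272, 147 and 181 reads in lenvatinib (limma adjusted p = 0.00365).

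Membrane-type MMPs were the most abundant class, and none of the 3 tested passed in limma or had an unadjusted p below 0.05. Mmp15, also called MT2-MMP, was the highest MMP, at 43.3, 40.8 and 41.5 FPKM in DMSO and 40.3, 51.5 and 53.7 FPKM in lenvatinib (log2 fold change 0.20, limma adjusted p = 0.329). Lenvatinib 1 lay just under the DMSO range and the other two lay above it. Mmp14, the activator of pro-Mmp2 on stromal cells, stood at 36.1, 25.5 and 25.4 FPKM in DMSO and 33.2, 21.2 and 20.2 FPKM in lenvatinib, with library 1 the highest of each group (log2 fold change −0.23, limma adjusted p = 0.540). Mmp17, which is held in the membrane by a glycolipid anchor, was 2.11, 2.02 and 2.21 FPKM in DMSO and 2.21, 2.84 and 2.51 FPKM in lenvatinib. Its groups touched at 2.21 FPKM and separated only in later digits (log2 fold change 0.18, limma adjusted p = 0.290). The summed level of the class was 82.3, 69.0 and 69.7 FPKM in DMSO and 76.3, 76.3 and 77.1 FPKM in lenvatinib, inside the DMSO range.

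The remaining tested MMPs showed no separation of the groups. Mmp19, found in stromal and myeloid cells, was 3.92, 3.56 and 3.95 FPKM in DMSO and 4.70, 2.61 and 2.19 FPKM in lenvatinib, with lenvatinib 1 above and lenvatinib 2 and 3 below every DMSO library (log2 fold change −0.25, limma adjusted p = 0.483). Mmp11, stromelysin 3, which is activated inside the cell by furin, varied most among controls, at 4.14, 2.24 and 1.44 FPKM in DMSO and 1.88, 2.39 and 2.92 FPKM in lenvatinib (limma adjusted p = 0.961). Mmp28, epilysin, was 4.87, 4.02 and 3.80 FPKM in DMSO and 3.69, 4.45 and 4.11 FPKM in lenvatinib (limma adjusted p = 0.834). Mmp23 was 2.47, 1.81 and 2.01 FPKM in DMSO and 2.19, 1.57 and 2.01 FPKM in lenvatinib (limma adjusted p = 0.684). For the last 3 genes the groups overlapped.

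Among ADAMTS genes, Adamts1 rose. It encodes a proteoglycanase that cuts versican and aggrecan and is known to sequester VEGF. The level was 2.76, 3.04 and 2.90 FPKM in DMSO and 5.14, 4.50 and 4.14 FPKM in lenvatinib. Every lenvatinib library exceeded every DMSO library by more than 1 FPKM. The mean went from 2.90 ± 0.142 to 4.59 ± 0.507 FPKM, 1.58-fold higher, with a log2 fold change of 0.52 (SE 0.0884, limma adjusted p = 0.0474), close to the threshold. In reads it had 512 to 589 per DMSO library and 784 to 962 per lenvatinib library. Endothelial markers, summed over the 8 listed genes, were 41.6 to 44.8 FPKM in DMSO and 32.5 to 47.2 FPKM in lenvatinib, and 0 of 7 tested passed in limma (2 at an unadjusted p below 0.05).

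The other proteoglycanases did not pass. Adamts8, which also inhibits vessel growth in culture, was 0.907, 1.11 and 1.15 FPKM in DMSO and 1.44, 1.42 and 1.54 FPKM in lenvatinib, without overlap (log2 fold change 0.27, SE 0.0832, limma adjusted p = 0.156). Adamts4, an aggrecanase, was 3.58, 2.83 and 2.84 FPKM in DMSO and 3.14, 2.63 and 2.26 FPKM in lenvatinib (limma adjusted p = 0.457). Adamts15 was 1.04, 1.92 and 1.70 FPKM in DMSO and 2.13, 1.41 and 1.49 FPKM in lenvatinib (limma adjusted p = 0.802). The groups overlapped for both of these. Adamts5, the other main aggrecanase, was too low to test, at 0.473 ± 0.0212 FPKM in DMSO and 0.502 ± 0.0495 FPKM in lenvatinib.

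Adamts2 removes the amino-terminal propeptide of fibrillar procollagens. It stood at 2.47, 2.48 and 2.09 FPKM in DMSO and 1.75, 1.67 and 1.57 FPKM in lenvatinib. The groups did not overlap, but the difference did not pass (2.35 ± 0.222 against 1.66 ± 0.0939 FPKM, log2 fold change −0.33, SE 0.0829, limma adjusted p = 0.110). The related Adamts14 was low, at 0.318 FPKM on average in DMSO and 0.224 FPKM in lenvatinib. Adamts10, which associates with fibrillin, was 2.21, 1.69 and 1.71 FPKM in DMSO and 2.65, 1.39 and 1.48 FPKM in lenvatinib (limma adjusted p = 0.905). As with Mmp19, lenvatinib 1 was above and lenvatinib 2 and 3 were below all DMSO libraries.

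Of 3 tested TIMP genes, 0 passed in limma and 0 had an unadjusted p below 0.05. Timp1, the inducible inhibitor, was 3.99, 5.27 and 5.51 FPKM in DMSO and 6.90, 1.90 and 2.55 FPKM in lenvatinib. Lenvatinib 1 was the highest of all 6 libraries and lenvatinib 2 and 3 were the lowest (log2 fold change −0.44, SE 0.371, limma adjusted p = 0.478). Timp2, which both inhibits MMPs and helps Mmp14 activate Mmp2, was 40.3, 30.6 and 29.1 FPKM in DMSO and 37.7, 35.9 and 37.2 FPKM in lenvatinib (log2 fold change 0.16, limma adjusted p = 0.452). Timp3, which binds the matrix and also inhibits ADAMTS enzymes, was 22.2, 18.8 and 18.8 FPKM in DMSO and 28.0, 19.9 and 20.2 FPKM in lenvatinib (log2 fold change 0.17, limma adjusted p = 0.494). For both, DMSO 1 lay inside or above the lenvatinib range. Timp4 was nearly silent, at 0.0686 to 0.0872 FPKM in DMSO and 0.266, 0.0696 and 0.0614 FPKM in lenvatinib 1 to 3.

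As a description of the balance between enzymes and inhibitors, the summed MMP level was divided by the summed TIMP level in each library. The ratio was 2.10, 2.09 and 2.17 in DMSO and 1.68, 1.90 and 1.86 in lenvatinib, lower in every lenvatinib library. The MMP sums overlapped between groups (114 to 140 FPKM in DMSO, 110.0 to 122 FPKM in lenvatinib), as did the TIMP sums (53.5 to 66.5 and 57.7 to 72.9 FPKM). The ratio compares messenger RNA, not active enzyme, and was not tested.

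Lenvatinib 1 stood apart from lenvatinib 2 and 3 in many members. It was the highest of the lenvatinib libraries in 15 of the 20 tested genes, above the DMSO range in 9, below it in 6 and within it in 5. Lenvatinib 2 and 3 were both above the DMSO range in 4 genes and both below it in 9. These counts were not made over all genes, so they are not shown to be particular to the members. Lenvatinib 1 also stood apart over the genes at large. Its median squared deviation from lenvatinib 2 and 3 was 21.6 and 21.3 times counting noise, against 2.37 between lenvatinib 2 and 3. For Timp1, Mmp19 and Adamts10, library 1 lay above all DMSO libraries and the other two lay below. The ratio of lenvatinib 1 to the mean of lenvatinib 2 and 3 was 4.55 for Mmp3, 3.10 for Timp1, 1.96 for Mmp19, 1.84 for Adamts10 and 1.60 for Mmp14. Lenvatinib 1 above and lenvatinib 2 and 3 below all DMSO libraries was also the order of some marker genes, namely Cd3e, Cd3g and Cd8a of 8 lymphocyte markers, Pecam1, Cdh5, Tie1 and Egfl7 of 8 endothelial, Thy1 of 11 fibroblast and Csf3r of 10 neutrophil markers, and 0 of 12 macrophage markers. Cd3e, for example, was 6.23, 9.20 and 9.88 FPKM in DMSO and 13.4, 2.14 and 2.64 FPKM in lenvatinib. Summed neutrophil markers were 45.4 FPKM in lenvatinib 1, 12.6 and 13.3 FPKM in lenvatinib 2 and 3, and 8.01 to 18.6 FPKM in DMSO. These genes were singled out after their values were seen, and the part of these cell types in the levels of the members was not tested. With lenvatinib 1 left out, 10 of the 20 members passed (4 higher and 6 lower), where 38.0% of all genes did. Timp1 was then lower (log2 fold change −0.88, limma adjusted p = 0.00878) and so was Mmp2 (adjusted p = 0.0174), on lenvatinib libraries that were nearly identical to each other.

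**Figure D3:**
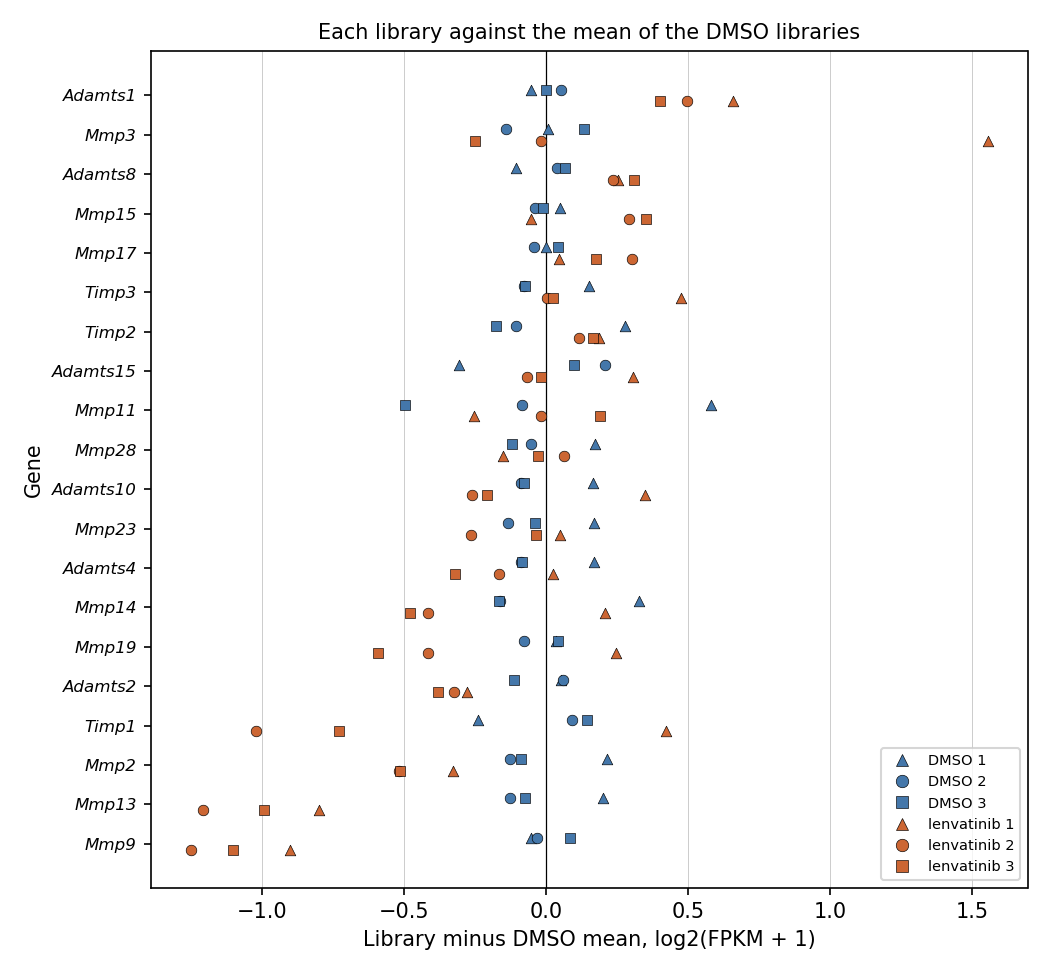
Each library minus the DMSO mean on the log2(FPKM + 1) scale for the 20 tested members, with blue for DMSO, orange for lenvatinib, and triangle, circle and square for libraries 1, 2 and 3. Mmp9 and Mmp13 lie below 0 and Adamts1 above 0 in all 3 lenvatinib libraries, while for Mmp3, Timp1 and Mmp19 lenvatinib 1 lies on the other side from lenvatinib 2 and 3 or far above them.

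The 23 members with a mean under 1 FPKM were not tested, and 4 of them had groups that did not overlap, as did 12.7% of all 12177 genes above 0 in that range. Adamts12, which cuts cartilage oligomeric matrix protein, was 0.617, 0.804 and 0.546 FPKM in DMSO and 0.336, 0.509 and 0.528 FPKM in lenvatinib. Mmp25, a membrane-type enzyme of leukocytes, was 0.551, 0.441 and 0.416 FPKM in DMSO and 0.310, 0.359 and 0.295 FPKM in lenvatinib. Mmp16 was 0.171, 0.250 and 0.131 FPKM in DMSO and 0.281, 0.290 and 0.270 FPKM in lenvatinib. The fourth, Adamts20, rested on 5 to 15 reads per library. Adamts7 (0.366 and 0.313 FPKM on average in DMSO and lenvatinib) and Adamts9 (0.515 and 0.444 FPKM) overlapped between the groups, and Adamts18 ranged from 0.0852 to 0.450 FPKM over the libraries. The other 13 untested members, with means of 0.00469 to 0.147 FPKM, were Adamts3, Adamts6, Adamts13, Adamts16, Adamts17, Adamts19 and Adamts20, Mmp8, Mmp20, Mmp21, Mmp24 and Mmp27, and Timp4. Mmp21 was listed at 0 in every library except lenvatinib 1, at 0.0281 FPKM. With a filter and pseudocount of 0.1 FPKM, 14 of the 23 could be tested in limma. Of these 0 passed (smallest adjusted p = 0.235) and 1, Mmp25, had an unadjusted p below 0.05.

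The pathway around these enzymes was read from 9 lists of 122 genes, of which 79 were tested, 2 passed as higher and 7 as lower. Over all genes tested, 2.03% passed. Fibrillar collagens and basement membrane proteins, the substrates of collagenases and gelatinases, held 6 of the 7, with Col1a1, Col1a2, Col3a1, Col5a1, Col5a2 and Eln lower among 14 tested (list median log2 fold change −0.24). No basement membrane gene was among those that passed. For Col4a1, Col4a2, Lamc1, Nid1 and Hspg2, lenvatinib 1 lay above and lenvatinib 2 and 3 below all DMSO libraries. Col1a1 went from 89.6 ± 4.16 to 37.7 ± 1.15 FPKM (log2 fold change −1.23, limma adjusted p = 0.000824) and Col3a1 from 167 ± 4.0 to 85.9 ± 1.52 FPKM. The other lower gene was Htra1, a serine protease of the matrix, at 25.8 ± 0.454 against 19.7 ± 0.943 FPKM (log2 fold change −0.38, limma adjusted p = 0.0361), the only 1 of 13 cathepsins and other matrix-degrading proteases to pass.

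ADAMTS-like proteins carry the ancillary domains of ADAMTS enzymes without the protease and bind the microfibrils of the matrix, and 2 of their 4 tested genes were higher (list median 0.57). Adamtsl5 was 2.83, 2.69 and 2.68 FPKM in DMSO and 4.65, 5.89 and 6.25 FPKM in lenvatinib (log2 fold change 0.81, limma adjusted p = 0.0212). Thsd4, also called Adamtsl6, was 1.75, 2.00 and 1.89 FPKM in DMSO and 3.18, 4.30 and 4.21 FPKM in lenvatinib (log2 fold change 0.76, limma adjusted p = 0.0300). Neither gene overlapped between the groups.

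The other 6 lists, with 48 tested genes, had 0 passing genes in limma, and 15 had an unadjusted p below 0.05 (22.0% of all genes did). Among ADAMTS substrates and the enzymes that add their O-linked fucose, the nearest of 8 tested were the fibulins Fbln1 (log2 fold change −0.38, limma adjusted p = 0.0531) and Fbln2 (−0.42, 0.0767). Versican, Vcan, the main substrate of Adamts1 in soft tissue, was below the filter on average, at 1.14, 1.08 and 1.10 FPKM in DMSO and 0.885, 0.509 and 0.487 FPKM in lenvatinib. Among 11 tested inhibitors and clearance receptors, Thbs2 (−0.62, 0.0830) and Pcolce (−0.69, 0.0880) came nearest. The list of inducers and other regulators of MMP transcription had a median log2 fold change of −0.50 over 7 tested genes. Its nearest genes were Tgfb1 at −0.74 (limma adjusted p = 0.103) and Cd44 at −1.11 (0.125). The proprotein convertases and serine proteases that activate MMPs, the ADAM proteases and the astacins gave Pcsk5 (0.29, 0.194), Adam9 (−0.27, 0.124) and Mep1a (0.58, 0.147) as their nearest genes.

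The calls of Mmp9, Mmp13 and Adamts1 depended on which libraries were used and on how libraries 2 and 3 were counted. Their direction was the same under all 19 alternatives, but groups that do not overlap leave little room for a reversal. Mmp9 passed under 13 of the 19, Mmp13 under 10 and Adamts1 under 9. Without DMSO 2, DMSO 3 or lenvatinib 3 the limma adjusted p of Mmp9 was 0.0664, 0.0712 and 0.0620. Without DMSO 1, the library with the male pattern, it was 0.0307. Mmp13 passed in just 1 of the 6 fits that leave out a library, the fit without lenvatinib 1 (adjusted p = 0.00275), and had adjusted p-values of 0.0540, 0.104 and 0.131 without DMSO 1 to 3 and 0.0984 and 0.129 without lenvatinib 2 and 3. Adamts1 likewise passed just without lenvatinib 1 (0.00587), with 0.0871, 0.193 and 0.224 without DMSO 1 to 3 and 0.199 and 0.123 without lenvatinib 2 and 3. With libraries 2 and 3 of each group averaged and counted as 1 sample, 2 against 2, the limma adjusted p was 0.299 for Mmp9, 0.423 for Mmp13 and 0.657 for Adamts1.

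**Figure D4:**
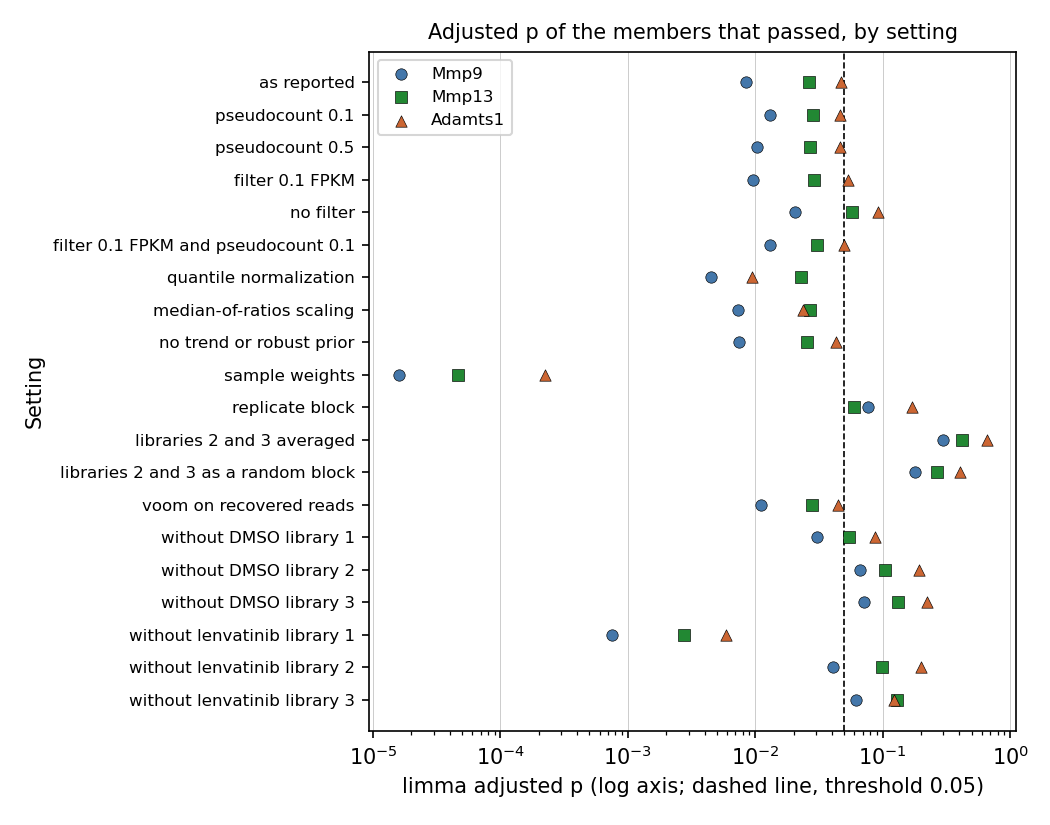
Adjusted p from limma (log axis) of Mmp9, Mmp13 and Adamts1 under the reported setting and each alternative, with the threshold of 0.05 dashed. All 3 genes lie above the line when libraries 2 and 3 are averaged, kept as a random block or given a replicate block, and below it with sample weights and without lenvatinib 1.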

How the data were processed

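RNA was measured in 6 colon libraries, 3 DMSO and 3 lenvatinib, extracted with TRIzol and made into libraries by VAHTS Universal V10 chemistry, per the labels' protocols. The authors deposited FPKM values. The submitters' processing notes name HTSeq and GRCm39. Aligner, versions, annotation and strand setting are not given here, so reads shared with overlapping or antisense genes cannot be set apart. All 6 columns were used. Within each gene the FPKM were whole multiples of 1 read within 0.01 reads for 23951 of 23951 genes above 0 (100%), taking the smallest whole numbers, which gave depth.

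log2(FPKM + 1), with a pseudocount of 1, was tested for genes averaging 1 FPKM or more with limma 3.58.1 (R 4.3.3, trended and robust prior, two-sided, Benjamini-Hochberg, threshold 0.05), tested on simulated data. The members and lists were chosen with earlier results of these data known. Members with a mean of at least 0.2 FPKM are named with levels and the rest by range, and in each list the genes that passed, otherwise up to 2 by unadjusted p. Alternatives covered the pseudocount, filter, scaling, variance prior, weights, blocks, averaging and leaving out each library, and voom on recovered reads. Promoter windows are from RefSeq (GRCm38.p6), and no other coordinates are given because the build differs from that of the deposited table.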

Additional observations from a re-analysis of the deposited data

How the results depend on the processing

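Of 380 refits of a tested member (20 genes, 19 alternatives), 315 kept the direction and the side of the threshold, 25 lost a call, 16 gained one and 24 reversed. Reversals fell in 6 genes that did not pass, and the other 14 kept their direction throughout. Without a filter, 140 of all genes passed, with 1 MMP, 0 ADAMTS and 5 listed pathway genes, against 239, 2, 1 and 9 as reported. A filter of 0.1 FPKM gave 0 ADAMTS genes. With sample weights 7582 genes passed, with 7 MMP, 3 ADAMTS, 2 TIMP and 60 pathway genes. With libraries 2 and 3 averaged 3 genes passed, and with them as a random block 46. Both gave 0 MMP and 0 ADAMTS genes, and 0 and 3 pathway genes. Leaving out each library gave 45 to 4479 genes in all, 0 to 6 MMP, 0 to 3 ADAMTS, 0 to 1 TIMP and 3 to 41 pathway genes, the upper values without lenvatinib 1. The causes were not tested.

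Deviations of same-numbered libraries from their group means correlated at −0.20, −0.16 and −0.15. Each group held libraries that were close to copies of each other, so these correlations are not independent. They cannot decide whether the replicate numbers pair the libraries. A replicate block left 29 genes, with 0 MMP, 0 ADAMTS and 3 pathway genes, and adjusted p-values of 0.0768 for Mmp9, 0.0592 for Mmp13 and 0.168 for Adamts1 in limma.

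The reversed log2 fold changes, most of them under 0.1 in size with the largest 0.34 for Mmp11, were as follows. Quantile normalization gave 0.065 for Adamts10, 0.081 for Mmp11, 0.032 for Mmp23 and 0.071 for Mmp28. Sample weights gave −0.17 for Adamts15, 0.34 for Mmp11, 0.094 for Mmp28 and −0.11 for Mmp3. Mmp11 was at 0.0037 with median-of-ratios scaling and 0.0010 with voom. Adamts10 was at 0.016 with libraries 2 and 3 averaged and 0.012 as a random block. Leaving out each library moved Adamts10 from −0.23 to 0.071, Adamts15 from −0.078 to 0.18, Mmp11 from −0.27 to 0.26, Mmp23 from −0.15 to 0.0057, Mmp28 from −0.098 to 0.047 and Mmp3 from −0.13 to 0.77.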
